A study of Mus musculus with 12 samples.

Results

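The germline and meiosis genes described here are 33 genes of the piRNA pathway, of meiotic chromosomes and of germ cell regulation. They were chosen by symbol among 35856 rows of the expression table, with earlier results of these data known. All 33 symbols had a row, and the genes lie on 16 chromosomes, with at most 5 on one, chromosome 3. The table came from polyadenylated RNA of cardiac precursors (CPs), an embryonic mesoderm stage that precedes cardiomyocytes, made from C57BL/6 mouse embryonic stem cells. The cells carried the plant receptor TIR1 and an auxin-inducible degron (AID) on 1 subunit of Polycomb repressive complex 2 (PRC2), the enzyme that methylates histone H3 (H3K27). With TIR1 present, auxin sends the tagged protein to degradation. The groups were SUZ12-AID (a core subunit), MTF2-AID and AID-JARID2 (accessory subunits found in separate PRC2 assemblies), each with 50 µM indole-3-acetic acid (IAA, called auxin below) and each untreated. Each of the 6 groups had 2 libraries, 12 in all. The labels give the genotype of every group as the tagged subunit with Tir1 and name no further allele. There was 1 line per subunit, and neither an untagged line with auxin nor the start or length of the treatment is given in the sources used here. The submitters call the replicates biological and do not say whether they were separate cultures, so p-values measure the spread between these libraries, which may be technical.

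Germline genes are normally active in oocytes, spermatogenic cells and their precursors. Some of their products bind PIWI-interacting RNAs (piRNAs) and keep transposons silent, some build the axis and the synaptonemal complex that hold meiotic chromosomes together, and others are RNA-binding proteins or transcription factors of germ cells. In somatic cells many of them are held off by promoter DNA methylation and by repressors that bind E-box and E2F sequences, among them PRC1.6, a form of Polycomb repressive complex 1. PRC2 is a different complex, and several germline promoters carry its mark as well in embryonic stem cells.

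Of the 33 genes, 31 had promoters in RefSeq (GRCm38.p6), which were searched over the 250 bases before each start. The E-box CACGTG, which reads the same on both strands, was found in 14 of these 31 genes (45.2%), against 1854 of all 27025 genes with a promoter in the table (6.86%). Among promoters with at least 10 CpG dinucleotides the shares were 13 of 26 genes (50.0%) and 10.2% of all genes. The E2F core GCGGGAA, searched on the other strand as well, was found in 6 of 31 genes (19.4%), namely Ddx4, Hormad1, Rpl10l, Smc1b, Sycp3 and Tdrd5, against 4.38% of all genes. Ddx4, Hormad1 and Sycp3 held both motifs (9.68% of 31 genes, against 0.451% of all genes). With at least 10 CpG dinucleotides, the E2F core was in 5 of 26 genes, against 8.95% of all genes. Both motifs were then in 3 of 26 genes, against 0.92% of all genes. The motifs do not overlap each other in the windows printed here. A match describes letters in a window and no binding.

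The promoters of 6 genes that responded in the SUZ12-AID line are printed 5′ to 3′ in the direction of transcription, 4 with an E-box and 2 without, with E-box and E2F letters in capitals. They lie at chr13:112652311-112652560 (minus strand) for Ddx4, chr10:88459337-88459586 (plus strand) for Sycp3, chr3:40708621-40708870 (plus strand) for Slc25a31, chrX:134476491-134476740 (minus strand) for Taf7l, chr11:121145893-121146142 (plus strand) for Tex19.1 and chr3:55181794-55182043 (plus strand) for Sohlh2.
Ddx4: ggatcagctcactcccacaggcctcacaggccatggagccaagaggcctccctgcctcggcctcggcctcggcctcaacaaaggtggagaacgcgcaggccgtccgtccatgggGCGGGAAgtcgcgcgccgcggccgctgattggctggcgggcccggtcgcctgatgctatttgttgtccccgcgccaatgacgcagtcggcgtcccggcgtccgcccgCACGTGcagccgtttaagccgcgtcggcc
Sycp3: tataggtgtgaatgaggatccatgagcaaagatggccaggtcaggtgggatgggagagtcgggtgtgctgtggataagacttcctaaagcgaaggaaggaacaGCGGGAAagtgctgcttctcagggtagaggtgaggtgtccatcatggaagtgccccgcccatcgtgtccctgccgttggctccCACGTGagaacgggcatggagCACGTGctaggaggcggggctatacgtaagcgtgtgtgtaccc
Slc25a31: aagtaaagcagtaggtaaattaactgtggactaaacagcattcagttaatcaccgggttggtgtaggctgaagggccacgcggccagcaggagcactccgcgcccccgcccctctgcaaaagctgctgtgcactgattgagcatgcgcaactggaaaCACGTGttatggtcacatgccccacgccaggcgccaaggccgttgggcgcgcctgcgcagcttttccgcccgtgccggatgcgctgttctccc
Taf7l: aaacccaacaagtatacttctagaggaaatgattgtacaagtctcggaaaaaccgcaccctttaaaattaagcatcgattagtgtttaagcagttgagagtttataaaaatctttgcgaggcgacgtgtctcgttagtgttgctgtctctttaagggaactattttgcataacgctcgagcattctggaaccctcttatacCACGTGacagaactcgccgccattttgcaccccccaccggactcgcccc
Tex19.1: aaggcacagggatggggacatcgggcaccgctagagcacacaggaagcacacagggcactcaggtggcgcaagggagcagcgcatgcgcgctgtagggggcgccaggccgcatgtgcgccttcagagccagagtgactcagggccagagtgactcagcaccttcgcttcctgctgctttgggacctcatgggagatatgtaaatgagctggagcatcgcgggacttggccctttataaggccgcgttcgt
Sohlh2: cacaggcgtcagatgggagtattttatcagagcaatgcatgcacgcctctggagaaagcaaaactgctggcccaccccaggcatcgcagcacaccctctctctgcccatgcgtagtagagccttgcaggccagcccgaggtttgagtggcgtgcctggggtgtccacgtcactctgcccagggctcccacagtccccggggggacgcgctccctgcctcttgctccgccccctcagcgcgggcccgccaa

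The E-box of Ddx4 began 29 bases before the start and that of Taf7l 49 bases before it. Sycp3 had an E-box at 64 bases and another at 43 bases before the start. The promoters of Tex19.1 and Sohlh2 held neither motif in this window. Over all member promoters the median was 15 CpG dinucleotides per 250 bases, against 6 over all promoters.

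**Figure D1:**
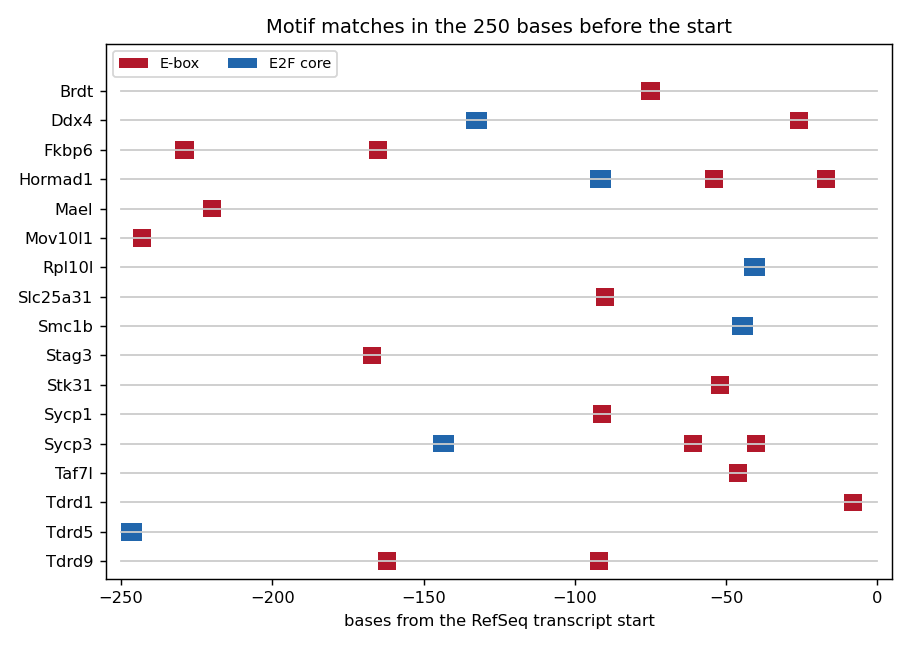
Motif matches in the 250 bases before the RefSeq start of the 17 genes that held one, with 1 promoter drawn per gene, the first by coordinate; red boxes mark E-boxes and blue boxes the E2F core, and the horizontal axis gives bases from the start. The E-box of Ddx4 lies 29 bases before the start and that of Mov10l1 246 bases before it.

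The libraries held 10138920 to 17173072 reads recovered from the values, and 18964 to 21026 genes above 0. The values are in TPM, transcripts scaled for length to the same total in every library. The identity of the cells was read from markers: Hand1, a mesodermal and cardiac factor, had 989.8 to 2552 TPM in the SUZ12-AID and MTF2-AID groups and in untreated AID-JARID2, and 107 and 90.0 TPM in auxin-treated AID-JARID2 libraries. The summed TPM of 12 cardiac mesoderm markers was 212 and 177 in auxin-treated AID-JARID2 libraries, against 2324 and 2274 in untreated ones. Of the 11 markers tested 10 fell (17% of all genes). The cardiac markers thus went against the label CP in that group. The SUZ12-AID libraries stood apart in replicate spread: replicates differed by a median of 0.144 in absolute log2 value with auxin and 0.195 untreated, against 0.0884 to 0.103 in the 4 other groups. In bulk RNA, fewer cells that express a gene and less RNA per cell cannot be told apart.

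The germline genes chosen here were mostly higher with auxin in the SUZ12-AID line. As they were chosen with earlier results known, shares over all genes stand beside their counts as description only. The summed TPM of the 33 genes was 118 and 152 in auxin-treated SUZ12-AID libraries, against 60.7 and 59.8 in untreated ones. Both auxin libraries lay above both untreated ones for 28 genes, below them for 0, and the groups overlapped for 5. Among the 22 members that passed the filter given below, these counts were 20, 0 and 2. Non-overlap covered 34% (higher) and 15.3% (lower) of all genes that passed it. Of the 22 members 6 passed only through the auxin-treated SUZ12-AID libraries, which favours a higher value there. The highest of the 6 groups was auxin-treated SUZ12-AID for 25 of 33 genes. The share over all genes was not computed for this count.

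**Figure D2:**
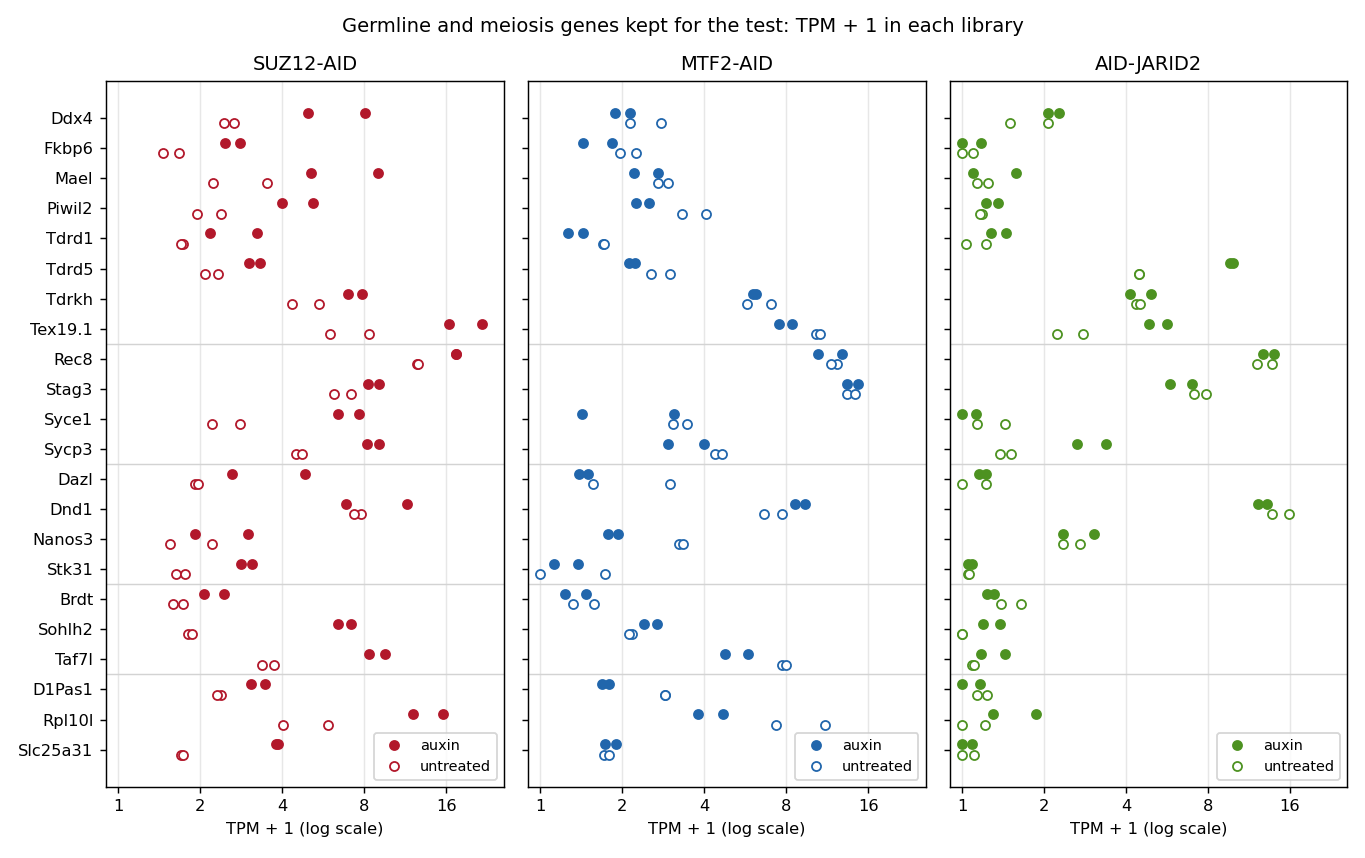
TPM + 1 (log scale) in every library of the 22 genes kept for the test, with filled points for auxin-treated libraries, open points for untreated ones, 1 panel per line and grey lines between roles; in SUZ12-AID both filled points lie right of both open ones for 20 genes, and the groups overlap for the other 2, Dnd1 and Nanos3.

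Differences were tested as log2(TPM + 1) with limma on 15663 genes that reached 1 TPM in at least 2 libraries, with p-values adjusted by the Benjamini-Hochberg method over all of them and a threshold of 0.05. Differences on this scale are smaller than a plain log2 fold change for genes with low TPM. Of the 33 germline genes 22 passed this filter. Dazl, Stk31, Tdrd1, Slc25a31, Brdt and Fkbp6 passed it only through the auxin-treated SUZ12-AID libraries, which favours a difference there, so the counts over the 22 are given as description. Of the 22 genes 14 rose with auxin in SUZ12-AID (15.1% of all genes tested rose) and 0 fell (4.05%), with a median difference of 0.84, against 0.064 over all genes. With no filter the same model covered 26224 genes and all 33 members, of which 14 rose (9.25% of genes) and 0 fell (2.2%; also 0 at an unadjusted p under 0.05 among the 22 and with voom), with a median of 0.53, against 0.043 over all genes. That count of 14 included D1Pas1 and Smc1b, and lacked Tdrd5 and Tdrkh. Over all genes 2362 rose and 635 fell, and this split moved with the scaling, to 2102 and 1548 with median-of-ratios scaling and to 1605 and 1418 with quantile normalization. Under these scalings 14 and 10 of the germline genes rose, and Tdrd5, Tdrkh, Rec8 and Fkbp6 did not pass with quantile normalization. The filtered count dropped to 5 without SUZ12-AID auxin replicate 2, which had the higher value in 19 of the 22 genes, and the 5 were Tex19.1, Taf7l, Slc25a31, Sohlh2 and Piwil2. It was also 5, the same genes, with a variance weight per line. The filter was set on all 12 libraries and was not repeated when libraries were left out. Slc25a31 reached 1 TPM only in the auxin-treated SUZ12-AID libraries, so it would not pass the filter without auxin replicate 2. Leaving out untreated replicate 1 as well gave 5, with Rpl10l in place of Piwil2, and the 4 libraries of the line fitted alone gave 1, Sohlh2.

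**Figure D3:**
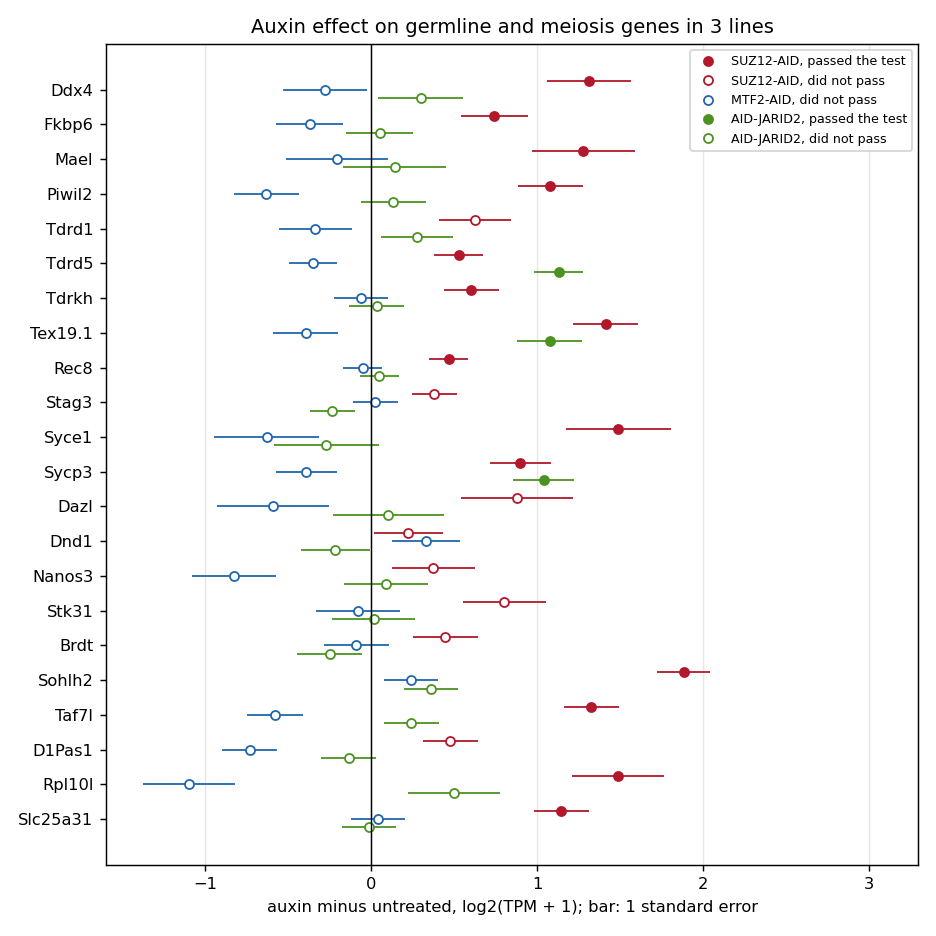
Auxin minus untreated difference in log2(TPM + 1) for the 22 genes tested, by line, with bars of 1 standard error from the limma model; filled points passed an adjusted p of 0.05, and all 22 SUZ12-AID points lie above 0.

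Of the 12 piRNA pathway genes 8 were tested, and 7 of these rose in SUZ12-AID, where 15.1% of all genes rose. The 7 include Fkbp6, which the filter kept only through the auxin-treated libraries of this line. Tex19.1, a mouse germline and placenta protein that helps restrain retrotransposons, had 15.3 and 20.6 TPM in auxin-treated SUZ12-AID libraries, against 7.30 and 4.98 TPM in untreated ones. It was the most abundant of the group, and its groups did not overlap. The difference was 1.41 ± 0.20 (SE; adjusted p = 0.00104). A share of 6.31% of its 31-base stretches also occurs in Tex19.2, so some of its reads could belong to that copy.

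Ddx4, the RNA helicase also known as Vasa that marks germ cells, had 3.99 and 7.07 TPM in auxin-treated SUZ12-AID libraries, against 1.45 and 1.66 TPM in untreated ones. Mael, a protein of the granules in which piRNAs are made, had 4.10 and 8.01 TPM in auxin-treated SUZ12-AID libraries, against 1.22 and 2.50 TPM in untreated ones. Piwil2, a PIWI protein that binds piRNAs directly, had 3.00 and 4.19 TPM in auxin-treated SUZ12-AID libraries, against 0.950 and 1.38 TPM in untreated ones. In each of the 3 genes both auxin libraries were above both untreated ones, and auxin replicate 2 was the highest. The differences were 1.31 ± 0.26 for Ddx4, 1.28 ± 0.31 for Mael and 1.08 ± 0.20 for Piwil2 (SE; adjusted p = 0.00592, 0.0166 and 0.00425). Without auxin replicate 2, Ddx4 and Mael did not pass.

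Fkbp6, a co-chaperone of piRNA loading, had 1.45 and 1.80 TPM in auxin-treated SUZ12-AID libraries, against 0.674 and 0.463 TPM in untreated ones, and differed by 0.74 ± 0.20 (adjusted p = 0.0278). Tdrd5, a Tudor domain protein of germ granules, had 2.02 and 2.32 TPM in auxin-treated SUZ12-AID libraries, against 1.33 and 1.08 TPM in untreated ones (0.53 ± 0.15, adjusted p = 0.0313). Tdrkh, which anchors PIWI proteins at mitochondria, had 5.95 and 6.83 TPM in auxin-treated SUZ12-AID libraries, against 3.33 and 4.44 TPM in untreated ones (0.60 ± 0.16, adjusted p = 0.0287). These 3 genes had non-overlapping groups and smaller differences than Ddx4, Mael and Piwil2, and none of them passed without auxin replicate 2. Tdrd1, another Tudor protein, had 1.16 and 2.24 TPM in auxin-treated SUZ12-AID libraries, against 0.729 and 0.701 TPM in untreated ones. Its groups did not overlap, and the difference of 0.63 did not pass (adjusted p = 0.0763).

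Of the 8 genes of meiotic chromosomes 4 were tested, and 3 rose in SUZ12-AID, against the same 15.1% of all genes. Syce1, a central element of the synaptonemal complex, had 5.39 and 6.62 TPM in auxin-treated SUZ12-AID libraries, against 1.20 and 1.80 TPM in untreated ones. Sycp3, of the lateral elements of that complex, had 7.17 and 8.03 TPM in auxin-treated SUZ12-AID libraries, against 3.49 and 3.73 TPM in untreated ones. Rec8, the meiotic kleisin of cohesin, had 16.3 and 16.4 TPM in auxin-treated SUZ12-AID libraries, against 11.5 and 11.6 TPM in untreated ones. Groups did not overlap in these genes. The differences were 1.49 ± 0.32 for Syce1, 0.90 ± 0.18 for Sycp3 and 0.47 ± 0.12 for Rec8 (SE; adjusted p = 0.00954, 0.00783 and 0.0209), and these also failed to pass without auxin replicate 2. Sycp3 overlaps Chpt1 on the opposite strand. Whether the counting used strand is not given in the sources used here. Stag3, a meiotic cohesin subunit, had 8.06 and 7.25 TPM in auxin-treated SUZ12-AID libraries, against 5.18 and 6.14 TPM in untreated ones, and its difference of 0.38 did not pass (adjusted p = 0.0801).

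None of the 4 RNA-binding and granule genes passed in SUZ12-AID; at an unadjusted p under 0.05 there were 2, Dazl and Stk31, and with voom, limma's model for the recovered reads, Stk31 passed. Dazl, which promotes translation in germ cells, had 1.61 and 3.84 TPM in auxin-treated SUZ12-AID libraries, against 0.915 and 0.957 TPM in untreated ones. The groups did not overlap, and the auxin libraries differed from each other by more than the lower one did from the untreated libraries. Its difference was 0.88 (95% interval 0.13 to 1.63, adjusted p = 0.102). Stk31, a Tudor and kinase-like protein of testis, had 2.09 and 1.83 TPM in auxin-treated SUZ12-AID libraries, against 0.627 and 0.763 TPM in untreated ones (0.80, adjusted p = 0.0509). Dnd1, which protects germ cell messages from microRNAs, overlapped between 5.83 and 10.4 TPM with auxin and 6.80 and 6.32 TPM untreated. Its direction was not stable: the difference was 0.22, and it was -0.045 with quantile normalization, -0.15 without auxin replicate 2 and 0.60, past the threshold, without auxin replicate 1. Nanos3, needed by migrating primordial germ cells, overlapped as well, with 0.912 and 2.00 TPM with auxin and 1.20 and 0.550 TPM untreated.

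The germ cell transcription factors had the largest difference of the set. Sohlh2, a basic helix-loop-helix factor of early spermatogonia and oocytes, had 5.40 and 6.14 TPM in auxin-treated SUZ12-AID libraries, against 0.805 and 0.857 TPM in untreated ones. Both auxin values were several times the untreated ones, and replicates lay close together. The difference was 1.88 ± 0.16 (SE; adjusted p = 9.89e-05), and it passed in each of the 23 alternative settings run. Taf7l, a testis form of a TFIID subunit, had 7.28 and 8.50 TPM in auxin-treated SUZ12-AID libraries, against 2.71 and 2.37 TPM in untreated ones (1.33 ± 0.17, adjusted p = 0.000624). Brdt, the testis bromodomain protein, had 1.06 and 1.45 TPM in auxin-treated SUZ12-AID libraries, against 0.580 and 0.721 TPM in untreated ones, and did not pass (0.45, adjusted p = 0.153).

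Among the testis products of other kinds, Rpl10l, a retrogene copy of the ribosomal protein Rpl10, had 11.0 and 14.5 TPM in auxin-treated SUZ12-AID libraries, against 4.88 and 3.03 TPM in untreated ones. Slc25a31, the ADP/ATP carrier of testis mitochondria, had 2.84 and 2.77 TPM in auxin-treated SUZ12-AID libraries, against 0.704 and 0.734 TPM in untreated ones. Both had non-overlapping groups, with differences of 1.49 ± 0.28 and 1.15 ± 0.16 (SE; adjusted p = 0.00478 and 0.0012). Of the 31-base stretches of Rpl10l 23.4% also occur in other genes, mainly Gm14460, so its reads may be split with a copy, and it did not pass without auxin replicate 2. D1Pas1, a testis retrogene of the RNA helicase Ddx3x, had 2.08 and 2.45 TPM in auxin-treated SUZ12-AID libraries, against 1.39 and 1.30 TPM in untreated ones, and its difference of 0.48 did not pass (adjusted p = 0.0747).

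Pluripotent cell markers moved in the same direction in this line. Their summed TPM over 10 genes was 320 and 398 in auxin-treated SUZ12-AID libraries, against 199 and 179 in untreated ones, and 8 of 10 rose (15.1% of all genes). Auxin replicate 2, the higher library for most germline genes, was also the higher one here. The summed cardiac markers were 1594 and 1498 TPM with auxin and 2573 and 2901 TPM untreated, set mainly by Hand1. Of 11 cardiac markers tested, 5 rose and 1 fell (15.1% and 4.05% of all genes). Primordial germ cell markers summed to 418 and 467 TPM with auxin and 349 and 357 TPM untreated, and 4 of 10 rose. This sum was set mainly by Ifitm3, which also made up most of its rise. Of the 10 differences 2 were negative, those of Kit and Sall4, and 1 gene was lower at an unadjusted p under 0.05. Dppa3, a defining marker of primordial germ cells, had 2.09 and 4.13 TPM with auxin and 1.16 and 1.14 TPM untreated. Gonadal somatic markers summed to 62.9 and 63.0 TPM with auxin and 58.9 and 60.9 TPM untreated, with 2 of 6 tested higher (15.1% of all genes). The part of any of these in the germline differences was not tested.

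**Figure D4:**
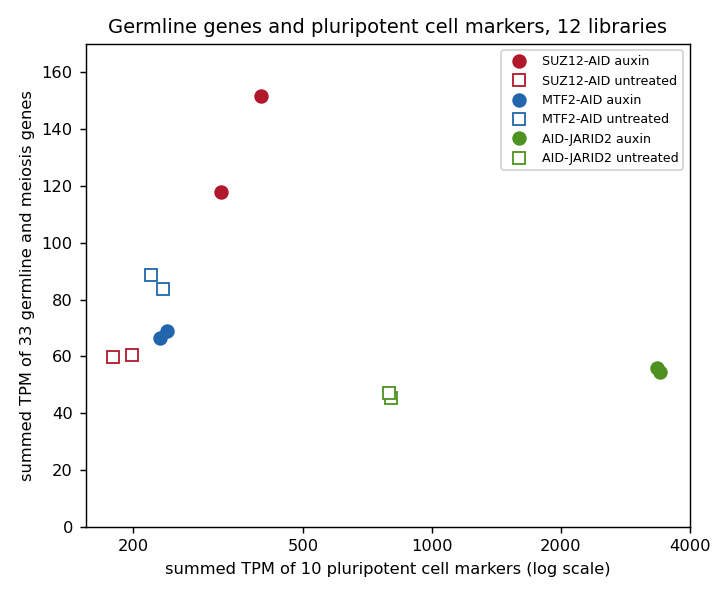
Summed TPM of the 33 germline genes (vertical) against that of 10 pluripotent cell markers (horizontal, log scale) in the 12 libraries; the auxin-treated AID-JARID2 libraries have the highest pluripotent sums, 3351 and 3403, at germline sums of 56.1 and 54.4, and the auxin-treated SUZ12-AID libraries have the highest germline sums.

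In the MTF2-AID line germline genes tended to be lower with auxin, and none passed the test. The summed TPM was 68.9 and 66.5 in auxin-treated MTF2-AID libraries, against 88.8 and 83.8 in untreated ones. Of the 22 genes tested 0 rose (0.0447% of all genes) and 0 fell (0.0192%) with limma. At an unadjusted p under 0.05 there were 0 higher and 6 lower, against 666 and 823 of all 15663 genes. The median difference was -0.34, against 0.0094 over all genes. Of the 22 differences 18 were negative, against 7311 of 15663 over all genes. Over all 33 genes both auxin libraries lay above the untreated ones for 2, below them for 15, and overlapped for 16. Among the 22 genes tested these counts were 2, 12 and 8, where non-overlap covered 24.1% (higher) and 21.8% (lower) of all genes tested. With no filter 0 of 33 rose (0.0343% of genes) and 0 fell (0.0458%), with a median of -0.18, against 0 over all genes. Voom on the recovered reads called 0 of the germline genes in either direction as well.

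The largest of these differences was that of Rpl10l, with 2.78 and 3.68 TPM in auxin-treated MTF2-AID libraries, against 10.1 and 6.33 TPM in untreated ones. Its interval was -1.72 to -0.48 (adjusted p = 0.176). Nanos3 had 0.777 and 0.930 TPM in auxin-treated MTF2-AID libraries, against 2.24 and 2.34 TPM in untreated ones, from 4 to 11 reads per library. Both genes had non-overlapping groups, with the auxin libraries lower. D1Pas1 had 0.681 and 0.782 TPM in auxin-treated MTF2-AID libraries, against 1.88 and 1.87 TPM in untreated ones, and Piwil2 had 1.50 and 1.24 TPM in auxin-treated MTF2-AID libraries, against 3.07 and 2.32 TPM in untreated ones. Taf7l had 3.77 and 4.80 TPM in auxin-treated MTF2-AID libraries, against 6.74 and 6.99 TPM in untreated ones. None of these 3 genes overlapped between groups, and their adjusted p-values were 0.141, 0.289 and 0.241. Sohlh2 and Dnd1 were the genes whose auxin libraries were both higher. Pluripotent cell markers summed to 240 and 231 TPM with auxin and 220 and 235 TPM untreated, and 0 of 10 passed (2 higher at an unadjusted p under 0.05). Cardiac markers summed to 1730 and 1713 TPM with auxin and 1698 and 1683 TPM untreated, and 0 of 11 passed (1 higher at an unadjusted p under 0.05).

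In the AID-JARID2 line 3 germline genes rose (19.5% of all genes tested rose) and 0 fell (17%), with a median difference of 0.10, against 0.010 over all genes. The share of 3 in 22 was below that of all genes, and with log2(TPM + 0.1) the count was 6, with Sohlh2 and Rpl10l among the added genes, while 3022 of all genes rose. With no filter on low values 3 of 33 rose (11.6% of genes) and 0 fell (9.26%). Over all 33 genes both auxin libraries lay above the untreated ones for 11, below for 5, and overlapped for 17. Among the 22 genes tested these counts were 8, 4 and 10, where non-overlap covered 37.7% (higher) and 35% (lower) of all genes tested. The summed TPM was 56.1 and 54.4 in auxin-treated AID-JARID2 libraries, against 45.4 and 47.0 in untreated ones.

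Tdrd5 had 8.62 and 8.92 TPM in auxin-treated AID-JARID2 libraries, against 3.47 and 3.46 TPM in untreated ones, with replicates close together and the highest level of any group. It overlaps A430050A11Rik on its own strand and 4930518J20Rik on the other, so some reads could belong to those genes. Tex19.1 had 3.88 and 4.65 TPM in auxin-treated AID-JARID2 libraries, against 1.77 and 1.24 TPM in untreated ones. Sycp3 had 2.37 and 1.63 TPM in auxin-treated AID-JARID2 libraries, against 0.515 and 0.385 TPM in untreated ones, from 15 and 12 reads with auxin and 3 and 2 reads untreated. Groups did not overlap in these 3 genes. The differences were 1.13 ± 0.15 for Tdrd5, 1.08 ± 0.20 for Tex19.1 and 1.04 ± 0.18 for Sycp3 (SE; adjusted p = 0.000206, 0.00179 and 0.00151), and each passed in all 23 alternative settings run.

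Several other genes were at low levels in this line in both conditions. Taf7l had 0.170 and 0.438 TPM in auxin-treated AID-JARID2 libraries, against 0.0920 and 0.103 TPM in untreated ones. Sohlh2 had 5 and 3 reads with auxin and 0 in both untreated libraries, and did not pass (adjusted p = 0.113). Ddx4 had 1.07 and 1.28 TPM in auxin-treated AID-JARID2 libraries, against 0.504 and 1.07 TPM in untreated ones, and the groups overlapped. Dnd1, Rec8, Stag3 and Tdrkh had higher levels, and their differences did not pass. Dnd1 had 11.2 and 12.2 TPM in auxin-treated AID-JARID2 libraries, against 12.7 and 14.8 TPM in untreated ones, and Rec8 had 11.7 and 12.9 TPM with auxin and 12.7 and 11.1 TPM untreated. Stag3 had 5.98 and 4.79 TPM with auxin and 6.12 and 6.86 TPM untreated, and Tdrkh had 3.95 and 3.14 TPM with auxin and 3.36 and 3.49 TPM untreated. The differences of Dnd1 and Rec8 were -0.22 and 0.049, with 95% intervals of -0.68 to 0.24 and -0.22 to 0.31. Beside these values, pluripotent cell markers summed to 3351 and 3403 TPM with auxin and 800 and 794 TPM untreated. Of the 10 markers 9 were higher and 1 lower (19.5% and 17% of all genes). The part of that change in the 3 increases was not tested.

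**Figure D5:**
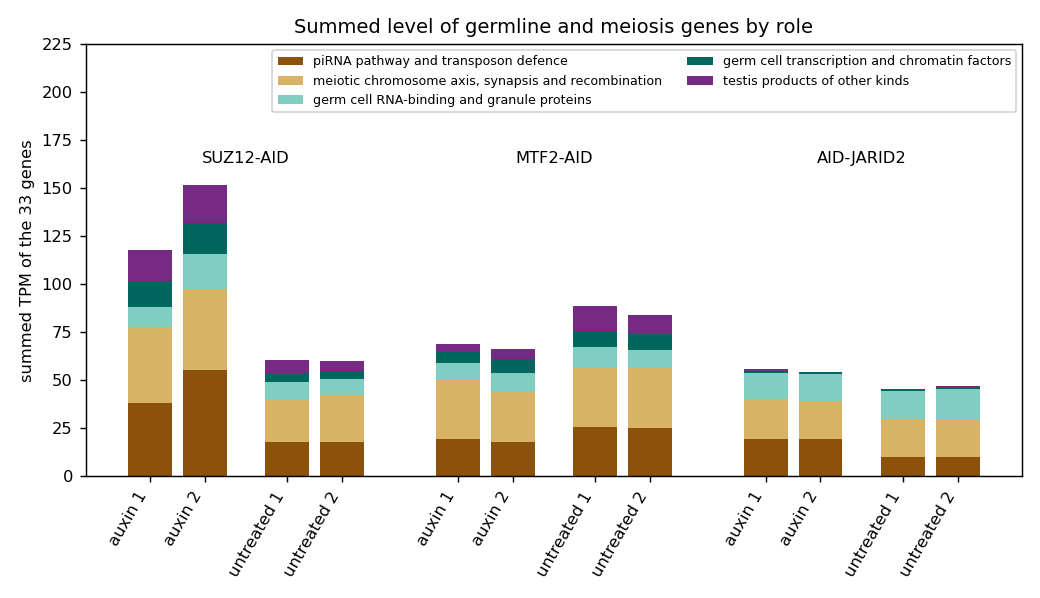
Summed TPM of the germline genes by role in every library, auxin-treated left of untreated within each line; the piRNA genes of auxin-treated SUZ12-AID libraries reach 38.4 and 55.3, and the germ cell transcription factors of all 4 AID-JARID2 libraries stay below 1.

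The auxin effects were then compared between lines in the same model. The effect in SUZ12-AID exceeded that in MTF2-AID for 12 of the 22 genes (9.11% of all genes tested) and was below it for 0 (2%). These comparisons share libraries with those above. Of the 12 genes, Fkbp6 and Slc25a31 were kept by the filter only through the auxin-treated SUZ12-AID libraries, which favours a difference there. Fkbp6 passed in 8 of 22 alternative settings and Tdrd5 in 15 of 23. The differences of effects ran from 0.88 for Tdrd5 to 2.59 for Rpl10l. For Rpl10l the SUZ12-AID difference was 1.49 and the MTF2-AID difference -1.10. Syce1 (2.12 ± 0.45, adjusted p = 0.0148), Taf7l (1.91 ± 0.24, adjusted p = 0.00117) and Tex19.1 (1.81 ± 0.28, adjusted p = 0.00335) followed. Stag3, with 13.7 and 12.3 TPM in auxin-treated MTF2-AID libraries, against 12.3 and 13.3 TPM in untreated ones, was among those that did not pass. Without SUZ12-AID auxin replicate 2 the count of germline genes was lower, and so was that of all genes.

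The effect in AID-JARID2 was below that in SUZ12-AID for 6 genes (15% of all genes) and above it for 0 (9%). The 6 were Syce1 (-1.76 ± 0.45), Sohlh2 (-1.52 ± 0.23), Slc25a31 (-1.16 ± 0.23), Taf7l (-1.09 ± 0.24), Piwil2 (-0.95 ± 0.28) and Stag3 (-0.62 ± 0.19). Stag3 passed in 7 of the 23 alternative settings run and Piwil2 in 11 of 23. Slc25a31 was kept by the filter only through the auxin-treated SUZ12-AID libraries. Syce1, Sohlh2, Slc25a31, Taf7l and Piwil2 were near 0 TPM in all AID-JARID2 libraries, where log2(TPM + 1) shrinks differences. Mean Taf7l was 7.89 TPM with auxin and 2.54 TPM untreated in SUZ12-AID, and 0.304 and 0.0976 TPM in AID-JARID2. Its difference of effects ran from -1.24 to -0.465 over the alternative settings, so a smaller fold change of Taf7l in AID-JARID2 was not shown. For Sohlh2 the sign of the difference turned with voom on the recovered reads, to 0.057, where its untreated AID-JARID2 libraries held 0 reads. The count of 6 was lower without SUZ12-AID auxin replicate 2, without AID-JARID2 auxin replicate 2 and without AID-JARID2 untreated replicate 2. In each of these settings the count over all genes was lower as well. For the 3 genes that rose in both lines the difference of effects did not pass, with 95% intervals of -0.96 to 0.28 for Tex19.1, -0.44 to 0.72 for Sycp3 and 0.14 to 1.07 for Tdrd5. The effect in AID-JARID2 exceeded that in MTF2-AID for 5 genes (12.6%), namely Tex19.1, Sycp3, Taf7l, Tdrd5 and Rpl10l, and was below it for 0 (11.7%). The count of 5 was lower without MTF2-AID auxin replicate 1, without MTF2-AID untreated replicate 1 and without AID-JARID2 untreated replicate 1. The count over all genes was lower in these settings too. At an unadjusted p under 0.05 the effect in AID-JARID2 was above that in SUZ12-AID for 1 gene, and the other counts of 0 in these comparisons of lines were 0 there too, as they were with voom.

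The untreated lines differed in their germline levels. Untreated AID-JARID2 had a summed level of 45.4 and 47.0 TPM, against 60.7 and 59.8 TPM in untreated SUZ12-AID and 88.8 and 83.8 TPM in untreated MTF2-AID. Relative to untreated SUZ12-AID, 10 of the 22 genes were lower in untreated AID-JARID2 (12.4% of all genes) and 2 were higher (15.2%). Relative to untreated MTF2-AID, 14 were lower (17.6%) and 2 higher (15.8%). Among the lower genes, Syce1 passed against SUZ12-AID in 6 of 22 alternative settings, and Dazl passed against MTF2-AID in 8 of 21. The 2 higher genes were Tdrd5 and Dnd1 in both comparisons, and Dnd1 did not pass against SUZ12-AID without AID-JARID2 untreated replicate 2.

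Taf7l had 0.0920 and 0.103 TPM in untreated AID-JARID2, against 2.71 and 2.37 TPM in untreated SUZ12-AID and 6.74 and 6.99 TPM in untreated MTF2-AID. Rpl10l had 0 and 0.211 TPM in untreated AID-JARID2, against 4.88 and 3.03 TPM in untreated SUZ12-AID and 10.1 and 6.33 TPM in untreated MTF2-AID. Both untreated AID-JARID2 libraries were below every untreated library of the other lines for both genes. The differences from untreated MTF2-AID were -2.84 ± 0.17 for Taf7l and -3.03 ± 0.28 for Rpl10l (SE; adjusted p = 1.89e-06 and 2.95e-05). Tdrd5 ran the other way, with 3.47 and 3.46 TPM in untreated AID-JARID2, against 1.33 and 1.08 TPM in untreated SUZ12-AID (1.02 ± 0.15, adjusted p = 0.000655). Dnd1 had 12.7 and 14.8 TPM in untreated AID-JARID2, against 6.80 and 6.32 TPM in untreated SUZ12-AID (0.96 ± 0.21, adjusted p = 0.00686), and some of its reads may be shared with Dnd1-ps, which holds 3.25% of its 31-base stretches, or with Wdr55, which it overlaps on the opposite strand.

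Between untreated SUZ12-AID and untreated MTF2-AID, 3 genes were lower in SUZ12-AID (5.5% of all genes) and 0 higher (3.15%; 0 at an unadjusted p under 0.05 and with voom). Stag3 had 5.18 and 6.14 TPM in untreated SUZ12-AID, against 12.3 and 13.3 TPM in untreated MTF2-AID (-1.05 ± 0.14, adjusted p = 0.00177). Taf7l (-1.15 ± 0.17, adjusted p = 0.00315) and Piwil2 (-0.77 ± 0.20, adjusted p = 0.0389) were the others. Piwil2 passed in 8 of 22 alternative settings. None of the 3 passed with the 4 compared libraries fitted alone, where 0 of all genes were lower and 1 was higher. With auxin, Taf7l reached 7.28 and 8.50 TPM in SUZ12-AID, where untreated MTF2-AID had 6.74 and 6.99 TPM. Each tag was in 1 line, so the tag and the line cannot be told apart.

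The 11 genes below the filter were rare transcripts. Hormad1, a protein of unsynapsed chromosome axes, had 0.700 and 1.73 TPM in auxin-treated SUZ12-AID libraries, against 0.0690 and 0.317 TPM in untreated ones, from 8 and 15 reads with auxin and 1 and 4 untreated, and shares 36.3% of its 31-base stretches with other genes. Sycp1, of the transverse filaments of the synaptonemal complex, had 0.769 and 1.45 TPM in auxin-treated SUZ12-AID libraries, against 0.455 and 0.565 TPM in untreated ones, and shares 15.6%. Smc1b, a meiotic cohesin subunit, had 0.678 and 0.613 TPM in auxin-treated SUZ12-AID libraries, against 0.134 and 0.307 TPM in untreated ones. Groups did not overlap in these 3 genes in SUZ12-AID. Mov10l1, the helicase that starts piRNA processing, had 0.601 and 0.738 TPM in auxin-treated SUZ12-AID libraries, against 0.380 and 0.290 TPM in untreated ones, also without overlap.

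Tdrd9, a piRNA pathway helicase, had 0.395 and 0.303 TPM in auxin-treated SUZ12-AID libraries, against 0.104 and 0.208 TPM in untreated ones, and Tdrd12, a further Tudor helicase, had 0.181 and 0.501 TPM in auxin-treated SUZ12-AID libraries, against 0.127 and 0.109 TPM in untreated ones. In AID-JARID2 Tdrd12 had 0.395 and 0.268 TPM with auxin and 0.0451 and 0.202 TPM untreated. The auxin libraries were the higher ones in each of these, without overlap. Asz1, a germ granule ankyrin protein, had 0.184 and 0.726 TPM in auxin-treated SUZ12-AID libraries, against 0.145 and 0 TPM in untreated ones, from 2 and 6 reads with auxin and 2 and 0 untreated. Mei1, needed for meiotic double-strand breaks, had 21 reads over all 12 libraries. The oocyte factor Nobox had 10, Tex101, a sperm surface protein, had 6, and Figla, another oocyte factor, had 3. Nobox had 0 reads in each of the 4 SUZ12-AID libraries.

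Genes of the same pathways outside the 33 gave the following counts. Of 15 further piRNA genes tested 5 rose and 0 fell in SUZ12-AID (15.1% and 4.05% of all genes), among them Dnmt3l, the cofactor of de novo DNA methylation in germ cells, with 5.56 ± 0.966 TPM with auxin and 1.59 ± 0.0375 TPM untreated (SD, n = 2 each; difference 1.33 ± 0.20), and Tex15, which guides that methylation, with a difference of 1.20 ± 0.17. Of 20 further meiotic genes 6 rose and 1 fell, among them Dmc1, the meiotic recombinase, with 4.90 ± 0.640 TPM with auxin and 1.73 ± 0.327 TPM untreated (difference 1.11 ± 0.19). Of 23 further germ cell regulators 10 rose and 1 fell, led by the X-linked homeobox genes Rhox6 and Rhox9 (2.62 ± 0.38 and 2.24 ± 0.26). Their medians were 0.30, 0.27 and 0.65, against 0.064 over all genes. In MTF2-AID 0 genes of these lists passed in either direction. At an unadjusted p under 0.05 there were 2 higher and 3 lower, all germ cell regulators, against 666 and 823 of all 15663 genes.

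In AID-JARID2 the same lists gave 3 higher and 1 lower of 15, 3 higher and 1 lower of 20, and 7 higher and 5 lower of 23, where 19.5% of all genes rose and 17% fell. Dmc1 had 10.9 ± 0.322 TPM with auxin and 7.26 ± 0.175 TPM untreated in this line (difference 0.53 ± 0.19). Prdm14, a factor of primordial germ cell fate, fell to 0.166 ± 0.152 TPM with auxin, against 2.62 ± 0.288 TPM untreated (-1.64 ± 0.21). Of 25 genes that repress germline genes, 0 rose (2 at an unadjusted p under 0.05) and 3 fell in SUZ12-AID (15.1% and 4.05% of all genes). The 3 were Uhrf1 (-0.44 ± 0.054), Trim28 (-0.27 ± 0.041) and Cbx1 (-0.17 ± 0.048). In AID-JARID2 8 of the 25 rose and 2 fell (19.5% and 17% of all genes). Dnmt3b, a de novo DNA methyltransferase, had 678 ± 0.933 TPM with auxin and 126 ± 1.63 TPM untreated in AID-JARID2 (2.42 ± 0.085). Whether these moves bear on the germline genes was not tested.

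Genes that responded had promoters with and without the E-box. In SUZ12-AID 6 of the 10 tested genes with an E-box rose and 7 of the 10 without one (15.1% of all genes). Of these genes 5 with an E-box and 1 without were kept by the filter only through the auxin-treated SUZ12-AID libraries, so the counts are not comparable between the sets. In AID-JARID2 1 and 2 of 10 rose (19.5% of all genes). Relative to untreated MTF2-AID, untreated AID-JARID2 was lower in 6 of 10 genes with an E-box and in 7 of 10 without (17.6% of all genes). Piwil2 and Dnd1 had no promoter in the table used. No test was run on these counts.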

How the data were processed

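RNA was measured in 12 libraries by strand-specific (dUTP) sequencing of polyadenylated RNA. The authors deposited 1 table of TPM values with 35856 rows, of which 9632 were 0 in every library. Per the submitters' processing notes, STAR 2.6.1d and the mouse build mm10 were used. How counting was done, with which annotation and strand setting, is not given in the sources used here. Columns were assigned by name. Whole reads were recovered from the steps of the TPM values, and 100.0% of the values above 0 were whole within 0.001 reads.

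The filter (1 TPM in 2 or more libraries) kept 15663 genes. These were modelled as log2(TPM + 1), 1 term per group, in limma 3.58.1 under R 4.3.3 with a mean-variance trend, which left 6 residual degrees of freedom plus 3.90 from the prior. The tests are two-sided, with p-values adjusted over all genes kept (Benjamini-Hochberg, threshold 0.05). Of the 9 contrasts, 3 set auxin against untreated cells within a line, 3 set those effects against each other, and 3 set untreated lines against each other. The model was tested on simulated data.

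All 33 genes are accounted for. Those that passed in a line are given in every library of that line, and not always in the other lines. From each other list up to 4 genes that passed per line, by size of difference, could be named. Members and lists were chosen with earlier results of these data known. Positions, overlaps and shared 31-base stretches came from GENCODE on mm10 and promoters from RefSeq. Alternatives were pseudocounts of 0.1 and 5, no filter, a filter of 4 libraries, median-of-ratios and quantile scaling, a variance weight per line, the compared libraries alone, a replicate block, voom on recovered reads, and each library left out in turn, where a lone library is assumed to vary like the other groups. Leaving out SUZ12-AID untreated replicate 1 together with auxin replicate 2 was added after seeing the data. When libraries were left out, the filter set on all 12 libraries was kept.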

Additional observations from a re-analysis of the deposited data

Results flagged for a closer look

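Auxin effects on 13 germline genes differed between lines by a limma test of the difference itself, with adjusted p-values between 0.00059 and 0.0415. The 13 join 3 comparisons that share libraries, so no single share of all genes stands beside them. Of all genes tested, 9.11% passed with SUZ12-AID above MTF2-AID, 15% with AID-JARID2 below SUZ12-AID and 12.6% with AID-JARID2 above MTF2-AID. The effect in SUZ12-AID minus that in MTF2-AID, on the log2(TPM + 1) scale, was 2.59 for Rpl10l, 2.12 for Syce1, 1.91 for Taf7l, 1.81 for Tex19.1, 1.71 for Piwil2, 1.64 for Sohlh2, 1.59 for Ddx4, 1.29 for Sycp3, 1.21 for D1Pas1, 1.11 for Fkbp6, 1.10 for Slc25a31 and 0.88 for Tdrd5. Fkbp6 and Slc25a31 were kept by the filter only through the auxin-treated SUZ12-AID libraries, which favours a difference there. D1Pas1 passed here without passing in either line, with 2.08 and 2.45 TPM with auxin and 1.39 and 1.30 TPM untreated in SUZ12-AID, and 0.681 and 0.782 TPM with auxin and 1.88 and 1.87 TPM untreated in MTF2-AID.

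The effect in AID-JARID2 minus that in SUZ12-AID was -1.76 for Syce1, -1.52 for Sohlh2, -1.16 for Slc25a31, -1.09 for Taf7l, -0.95 for Piwil2 and -0.62 for Stag3. Stag3 passed in neither line, and its difference passed in 7 of 23 alternative settings. That of Piwil2 passed in 11 of 23. Slc25a31 was kept by the filter only through the auxin-treated SUZ12-AID libraries. Syce1, Sohlh2, Slc25a31, Taf7l and Piwil2 were near 0 TPM in all AID-JARID2 libraries, where log2(TPM + 1) shrinks differences. The effect in AID-JARID2 minus that in MTF2-AID was 1.60 for Rpl10l, 1.48 for Tdrd5, 1.47 for Tex19.1, 1.43 for Sycp3 and 0.82 for Taf7l.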

How the results depend on the processing

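Each called difference of a germline gene kept its sign in every setting run in which the gene was tested, except Sohlh2 in AID-JARID2 minus SUZ12-AID, which was 0.057 with voom. Dnd1 in SUZ12-AID, not called, was -0.045 with quantile normalization, -0.15 without auxin replicate 2, -0.10 without that library and untreated replicate 1, and 0.60 without auxin replicate 1. Dazl and Tdrd1 passed without auxin replicate 1, at 1.32 and 0.92. The cause of these changes was not tested. Quantile normalization moved the median SUZ12-AID difference of all genes to -0.038, against 0.064.

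In SUZ12-AID the 14 germline genes that rose became 5 with a variance weight per line and 1 with its libraries alone. Of all genes 979 rose and 215 fell with the weight, 129 and 27 with its libraries alone, and 1548 and 1418 fell with median-of-ratios scaling and quantile normalization. With 1 library left out, or both chosen after seeing the data, 5 to 15 germline genes rose, 1109 to 2853 genes rose, and 265 to 1727 fell. The low ends were without SUZ12-AID auxin replicate 2. Without untreated replicate 1, 1427 genes fell.

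In MTF2-AID 7 genes rose and 3 fell. These were 4 higher with log2(TPM + 0.1), 12 higher and 18 lower with log2(TPM + 5), 12 lower with no filter, 7 and 8 lower with median-of-ratios and quantile scaling, 55 and 109 with the weight, 0 and 0 alone, and 4 and 10 with voom, and ranged over 4 to 27 and 1 to 24 with libraries left out. The germline counts remained at 0 and 0 in each of these. In AID-JARID2 6 germline genes rose with log2(TPM + 0.1), against 3, and 1970 (without AID-JARID2 auxin replicate 2) to 3735 genes rose with libraries left out, against 3053.

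The effect in AID-JARID2 was below that in SUZ12-AID for 2 germline genes with log2(TPM + 0.1) and 3 with the weight, against 6. Over all genes these counts were 2257 and 1932, against 2355. With libraries left out, the counts of germline genes and of all genes both moved. The effect in AID-JARID2 was above that in SUZ12-AID for 1 germline gene with log2(TPM + 5), with median-of-ratios scaling and with quantile normalization. Over all genes these counts were 1556, 2010 and 2098, against 1410. A germline gene was above without SUZ12-AID untreated replicate 2 as well. With libraries left out the effect in SUZ12-AID exceeded that in MTF2-AID for 7 (without SUZ12-AID auxin replicate 2) to 16 genes. The effect in AID-JARID2 exceeded that in MTF2-AID for 8 germline genes with the weight, against 5, and for 2804 of all genes, against 1980. It was below for 1 germline gene with the libraries of those lines alone, and for 2520 of all genes, against 1833. These counts moved with libraries left out too. Untreated SUZ12-AID was below untreated MTF2-AID for 0 germline genes with the compared libraries alone, where 0 of all genes were lower and 1 was higher. Untreated AID-JARID2 was above untreated SUZ12-AID for fewer germline genes without AID-JARID2 untreated replicate 2.

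Replicate numbers did not pair the libraries: deviations of same-numbered libraries correlated at 0.096, -0.039 and 0.0080 across genes for the SUZ12, MTF2 and JARID2 lines. A replicate block gave 13, 0 and 3 germline genes higher in these lines, and 3 genes higher and 1 lower in MTF2-AID. With few reads per gene and 2 libraries per group, depth limits what can be seen for the 11 genes below the filter.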

Other observations

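Markers of gonadal somatic cells and of primordial germ cells moved in both directions in AID-JARID2. Of 6 gonadal markers tested 1 rose and 1 fell (19.5% and 17% of all genes), with a median difference of -0.33, and the summed TPM of the 8 markers listed was 20.6 and 19.7 with auxin and 27.9 and 24.6 untreated. The one that rose was Wt1, a factor of the gonadal and kidney primordia, with 3.62 and 4.10 TPM in auxin-treated libraries, against 0.685 and 0.558 TPM in untreated ones (1.58 ± 0.20, limma adjusted p = 0.000169). The one that fell was Sox9, a Sertoli cell factor, with 11.9 and 9.21 TPM with auxin and 18.8 and 17.3 TPM untreated (-0.73 ± 0.11, adjusted p = 0.000493). Of 10 primordial germ cell markers 2 rose and 3 fell. Kit, the receptor needed for germ cell survival, was among those that fell, with 5.38 and 5.66 TPM in auxin-treated libraries, against 10.2 and 10.1 TPM in untreated ones (-0.78 ± 0.13, adjusted p = 0.000942). Tfap2c, a factor of germ cell specification, was among those that rose (0.61 ± 0.20, adjusted p = 0.0389).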
